A study of Mus musculus with 9 samples.

Results

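The genes described here encode the core of the pyruvate dehydrogenase complex and the enzymes that switch it off and on: the kinases Pdk1, Pdk2, Pdk3 and Pdk4, the phosphatases Pdp1 and Pdp2, and the subunits Pdha1, Pdhb, Dlat and Pdhx. They were chosen by name, as 10 of the 56941 gene identifiers in the count table, and all 10 passed the filter on low counts. RNA had been sequenced from pancreatic islets of wild type male C57BL/6J mice. From an age of 15 weeks the mice ate 1 of 3 diets for 9 months: a low fat diet with 10% fat (LFD, 3 libraries), a high fat diet with 60% fat (HFD, 2 libraries) or a ketogenic diet with 89.9% fat (KD, 4 libraries). No other treatment or allele is given in the labels. They do not say whether each library came from 1 animal or a pool, so the p-values measure the spread between these libraries, which may be partly technical.

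The pyruvate dehydrogenase complex sits in the mitochondrial matrix and turns pyruvate from glycolysis into acetyl-CoA, which feeds the citric acid cycle. The kinases phosphorylate its alpha subunit and stop the reaction, and the phosphatases remove the phosphate and restart it. In many tissues fasting and fatty acids raise Pdk4, which spares glucose, and in beta cells the oxidation of pyruvate is coupled to insulin secretion. The measurements are of RNA only and say nothing of the phosphorylation or activity of the complex.

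Total counts per library ran from 15513502 to 26588390. All 12 beta cell markers searched passed the filter on low counts, and Ins1 and Ins2 were abundant in every library. These markers took 5.73% to 9.50% of the counts in LFD and 11.6% and 12.9% in HFD. In KD replicates 1 to 4 they took 1.68%, 5.09%, 2.89% and 12.9%. The islets also carried RNA of the surrounding exocrine tissue: 18 acinar markers, mostly digestive enzymes, took 14.3% to 33.7% of the counts in LFD, 10.8% and 18.1% in HFD, and 19.3% to 57.0% in KD, where KD replicate 4 was the lowest. The summed level of 12 B and T lymphocyte markers was 67.8 to 1244 CPM in LFD, 56.8 and 74.2 in HFD, and 6.15 to 25.8 in KD. Mitochondrial transcripts took 1.58% to 2.37% of the counts in LFD, 1.505% and 2.65% in HFD, and 0.375% to 1.38% in KD, where every library was below all others. The part of the mitochondrial and beta cell differences in the results was not tested. CPM are read counts scaled to a common library size, here by TMM, which corrects for a few very abundant genes. In such bulk samples, fewer cells of a type and less RNA per cell cannot be told apart.

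By name, 9 of the 10 genes matched the RefSeq promoter table (build GRCm38.p6). The 250 bases before the start site of 3 kinases are shown, because these are the kinases with the highest mean in KD. The table holds a second start for Pdk1 and for Pdk2, and the most upstream start is shown. Capitals mark CCAAT boxes (CCAAT, or ATTGG on the other strand) and the hypoxia core ACGTG, which with its reverse complement makes the CACGTG in Pdk2. Pdk4 lies on the minus strand at chr6:5496279-5496528, Pdk2 on the minus strand at chr11:95041372-95041621 and Pdk1 on the plus strand at chr2:71872974-71873223.
Pdk4: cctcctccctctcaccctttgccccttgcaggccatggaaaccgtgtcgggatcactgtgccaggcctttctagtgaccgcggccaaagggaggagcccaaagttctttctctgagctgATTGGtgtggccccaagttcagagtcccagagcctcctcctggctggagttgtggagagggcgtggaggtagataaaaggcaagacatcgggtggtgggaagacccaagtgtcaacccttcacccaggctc
Pdk2: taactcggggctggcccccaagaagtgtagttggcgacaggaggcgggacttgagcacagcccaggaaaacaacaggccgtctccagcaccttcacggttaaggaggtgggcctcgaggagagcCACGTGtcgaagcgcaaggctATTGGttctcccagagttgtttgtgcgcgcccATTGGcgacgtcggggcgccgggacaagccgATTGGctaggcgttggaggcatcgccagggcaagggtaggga
Pdk1: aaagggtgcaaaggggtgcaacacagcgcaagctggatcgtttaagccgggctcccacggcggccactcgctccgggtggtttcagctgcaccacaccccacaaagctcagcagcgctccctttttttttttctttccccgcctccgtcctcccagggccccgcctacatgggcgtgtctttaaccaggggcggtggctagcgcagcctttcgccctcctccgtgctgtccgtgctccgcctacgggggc
The Pdk4 window held 6 CpG dinucleotides, against 19 in each of the other windows shown, and a GC content of 58.8%. This contrast depends on the start chosen, since the window of the other start held 2 in Pdk1 and 12 in Pdk2. It had 1 CCAAT box, 131 to 127 bases before the start. The Pdk2 window had 3, and its CACGTG lay 126 to 121 bases before the start. The Pdk1 window had no match to any of the 5 motifs searched on both strands. None of the 3 windows held the nuclear receptor half-site AGGTCA, its direct repeat AGGTCANAGGTCA, whose matches would also count as half-sites, or the forkhead motif GTAAACA. Among 32851 promoter windows of the same length, 14.0% held AGGTCA, 0.0335% the direct repeat, 3.17% GTAAACA, 16.6% ACGTG and 33.8% CCAAT. A match or its absence describes only the letters of this window.

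The 3 diets were compared pairwise and jointly to ask which of these transcripts differed between them. In KD, Pdk1, Pdk2, Pdk4 and Pdp2 had higher mean levels than in LFD, and the 4 core subunits had means within 1.15-fold of those in LFD. By edgeR's quasi-likelihood test with Benjamini-Hochberg adjustment over 18548 genes, 0 of the 10 genes passed an adjusted p of 0.05 for KD against LFD, where 4.12% of all genes passed. At an unadjusted p below 0.05 there were 4 of 10, against 22.7% of all genes. DESeq2 called 2 (Pdk1 and Pdp2), against 9.56% of all genes, and limma-voom 1 (Pdp2), against 10.1%. Without KD replicate 4, edgeR called 3 (Pdk1, Pdk2 and Pdp2), against 7.40%.

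For HFD against LFD, edgeR called 0 of the 10 genes and 0% of all genes, and DESeq2 and limma-voom called 0, against 1.44% and 0.0539% of all genes. At an unadjusted p below 0.05 there were 2 (Pdk2 and Pdk4, both lower in HFD), against 9.99% of all genes. For KD against HFD, edgeR called 0, again with 0% of all genes, and 4 (Pdk1, Pdk2, Pdk4 and Pdp1) had an unadjusted p below 0.05, against 22.7%. DESeq2 called those 4, against 8.18% of all genes, and limma-voom called 0 and 0% of all genes. Without KD replicate 4, edgeR called 3 (Pdk1, Pdk2 and Pdk4), against 9.84%. The joint edgeR test over the diets called Pdk4 alone of the 10, against 2.17% of all genes. The pairwise comparisons share libraries, so they are not independent of each other.

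**Figure D1:**
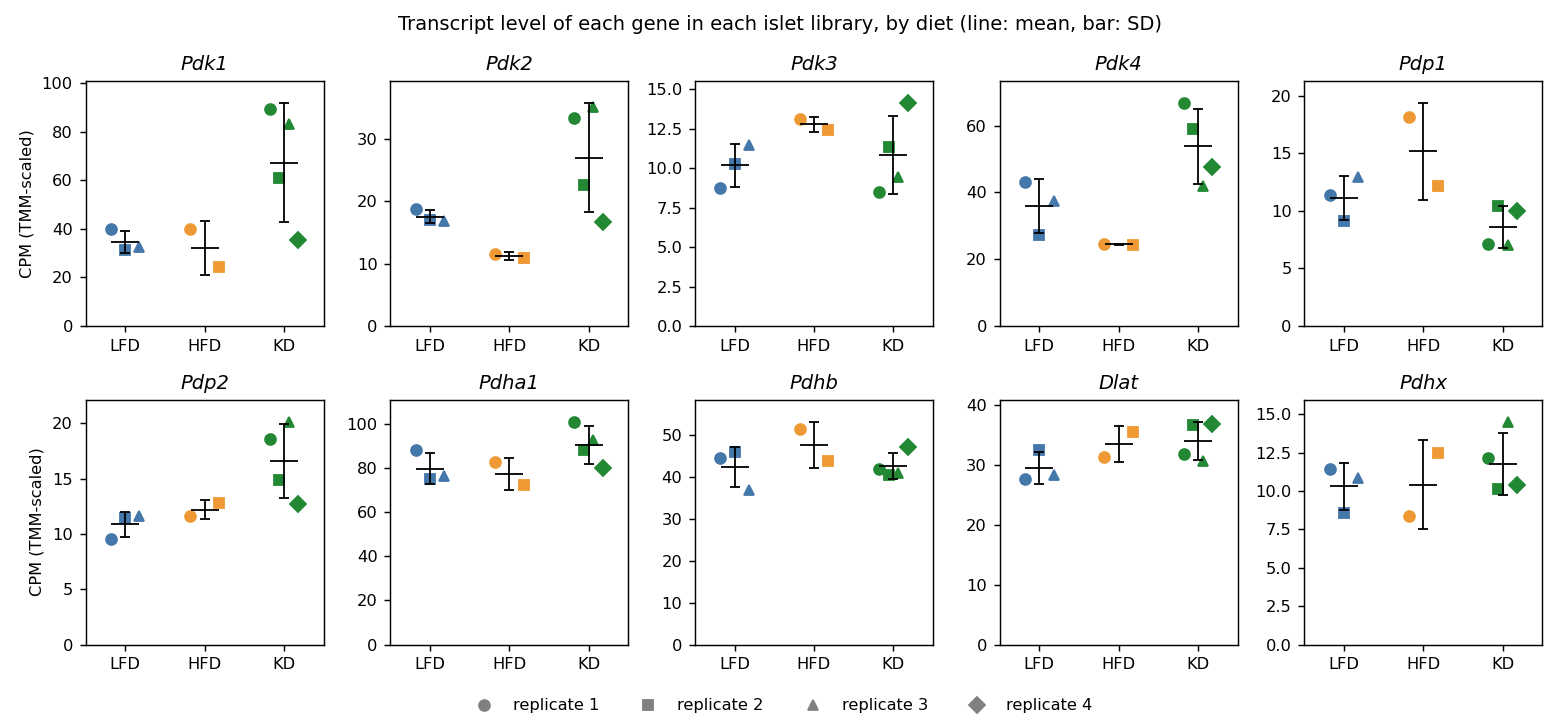
Level of each of the 10 genes in every library, in CPM on the y axis (each panel from 0, with its own scale), by diet on the x axis. Each point is 1 library, its shape the replicate number, the line the mean and the bar the SD. The Pdk4 points of HFD sit at 24.3 and 24.6, below all LFD and KD points, and those of Pdhb, Dlat and Pdhx overlap between diets.

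Pdk4, the kinase best known for its response to fasting, measured 43.0, 27.2 and 37.4 CPM in LFD replicates 1 to 3, 24.6 and 24.3 in HFD replicates 1 and 2, and 66.7, 58.9, 41.9 and 47.7 in KD replicates 1 to 4. Both HFD libraries lay below every other library, and KD replicate 3 fell within the LFD range while the other KD libraries lay above it. The joint test over the diets gave an adjusted p of 0.0432 (edgeR), just below the threshold, and many alternatives lost this call, as given below. No pairwise difference passed in edgeR. The KD mean was 2.20-fold the HFD mean, a log2 difference of 1.14 (SE 0.22, adjusted p = 0.124, edgeR). KD was 1.501-fold LFD (log2 0.59, SE 0.19, edgeR adjusted p = 0.104), and HFD was 0.681 times LFD (log2 -0.55, SE 0.23, edgeR adjusted p = 0.471).

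The joint call for Pdk4 was lost in 11 of 19 alternatives. These were the omission of LFD replicate 1 or 2, HFD replicate 1 or 2, or KD replicate 1, 2 or 3, a stricter filter, an acinar or a lymphocyte score as covariate, and the acinar score without KD replicate 4. With the acinar score in the model, the log2 difference was 0.48 for KD against LFD and 0.95 for KD against HFD, and with the lymphocyte score it was 0.25 and 1.05. The lymphocyte score did not overlap between the diets, so that fit can hardly tell it apart from diet. Between KD (11.8 to 14.2) and HFD (10.7 and 11.7) the acinar score did not overlap either. Its KD against HFD values have the same limit. Fat and muscle express Pdk4 strongly. Of 8 adipocyte markers, 2 (Fabp4 and Plin4) passed the filter, and the list summed to 8.11 to 19.9 CPM in LFD, 17.6 and 19.2 in HFD, and 13.1 to 23.9 in KD. Adipoq, the gene of an adipocyte hormone, was between 0 and 0.448 CPM. Of 9 skeletal and smooth muscle markers, 5 passed, among them the smooth muscle genes Myh11 and Acta2, and the list summed to 43.1 to 229 CPM in LFD, 42.4 and 50.3 in HFD, and 34.4 to 117 in KD. Myh4, a skeletal muscle myosin, was at 0 in all libraries. The ranges of both lists overlapped between KD and LFD, and their part in the Pdk4 result was not tested.

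Pdk1, a kinase also known as a hypoxia-responsive gene, measured 39.9, 31.5 and 32.5 CPM in LFD, 40.0 and 24.1 in HFD, and 89.5, 60.9, 83.2 and 35.3 in KD. The first 3 KD libraries lay above all others, and KD replicate 4 lay within the LFD range. The KD mean was 1.94-fold the LFD mean (log2 0.96, SE 0.30, edgeR adjusted p = 0.0967) and 2.09-fold the HFD mean (log2 1.07, SE 0.34, edgeR adjusted p = 0.134). HFD and LFD differed by a log2 of -0.11 (95% interval -0.88 to 0.66). With the acinar score in the model, the log2 difference of Pdk1 was 0.27 for KD against LFD and -0.032 for KD against HFD. For KD against HFD the score did not overlap between the diets, so that fit can hardly tell it apart from diet.

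Pdk2, the most widely expressed kinase of the family, measured 18.8, 16.98 and 16.8 CPM in LFD, 11.6 and 10.8 in HFD, and 33.2, 22.6, 35.1 and 16.7 in KD. Both HFD libraries were below all others, and KD replicate 4 was just below the LFD range while the other KD libraries were above it. KD was 1.53-fold LFD (log2 0.61, SE 0.23, edgeR adjusted p = 0.145) and 2.39-fold HFD (log2 1.26, SE 0.27, edgeR adjusted p = 0.124). HFD was 0.640 times LFD (log2 -0.64, SE 0.28, edgeR adjusted p = 0.487). With the acinar score in the model the log2 difference was 0.14 for KD against LFD and 0.47 for KD against HFD. The KD against HFD value has the same limit as for Pdk1. In the joint test its adjusted p was 0.0594 (edgeR).

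Pdk3, the remaining kinase, measured 8.77, 10.3 and 11.49 CPM in LFD, 13.1 and 12.4 in HFD, and 8.48, 11.3, 9.44 and 14.1 in KD. HFD lay above the LFD range, and KD spanned both. Its log2 difference was 0.10 for KD against LFD (95% interval -0.34 to 0.53), 0.33 for HFD against LFD (-0.18 to 0.84) and -0.23 for KD against HFD (-0.71 to 0.25).

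The phosphatases differed from each other in the order of the diets. Pdp2 measured 9.56, 11.4 and 11.6 CPM in LFD, 11.6 and 12.8 in HFD, and 18.6, 14.9, 20.1 and 12.7 in KD. Every KD library lay above every LFD library, which made Pdp2 the 1 gene of 10 whose KD and LFD libraries did not overlap, against 19.7% of all genes. The closest were KD replicate 4 and LFD replicate 3. Their 95% intervals for counting error, 11.3 to 14.3 and 10.2 to 13.1 CPM, overlapped. The KD mean was 1.52-fold the LFD mean (log2 0.60, SE 0.19, edgeR adjusted p = 0.0896). It was 1.35-fold the HFD mean (log2 0.44, SE 0.21, edgeR adjusted p = 0.239). With the acinar score in the model, KD against LFD gave 0.42.

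Pdp1, the calcium-stimulated phosphatase, measured 11.3, 9.14 and 12.9 CPM in LFD, 18.1 and 12.2 in HFD, and 7.08, 10.4, 7.04 and 9.99 in KD. Both HFD libraries were above all KD libraries, and the LFD range overlapped each. KD was 0.574 times HFD (log2 -0.80, SE 0.24, edgeR adjusted p = 0.125). KD against LFD gave -0.36 (95% interval -0.84 to 0.12) and HFD against LFD gave 0.44 (-0.12 to 1.01). The counts behind Pdp1 were the lowest of the 10 genes, at 79 in KD replicate 3, where counting error alone is 11.3% of the value, against 2.25% for the 1983 counts of Pdha1 in KD replicate 2. Such errors cover counting only.

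For KD against HFD, 3 of the 10 genes had libraries that did not overlap (Pdk2 and Pdk4 higher, Pdp1 lower), against 33.9% of all genes. For HFD against LFD there were 4 (Pdk2 and Pdk4 lower, Pdk3 and Pdp2 higher), against 27.5%. For Pdp2 the closest libraries were nearly tied, at 11.606 CPM in HFD replicate 1 and 11.584 in LFD replicate 3. That gap was within their counting error.

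The catalytic and structural subunits were close between diets. Pdha1, the alpha subunit that carries the phosphorylation sites, measured 88.1, 75.0 and 76.5 CPM in LFD, 82.7 and 72.4 in HFD, and 101, 88.3, 92.9 and 79.9 in KD. Its KD libraries overlapped both other diets. For KD against LFD its log2 difference was 0.18 (95% interval -0.097 to 0.46). Pdhb, the beta subunit that joins Pdha1 in the decarboxylating component, ranged from 36.8 to 51.4 CPM over the 9 libraries, and its KD against LFD difference was 0.0083 (-0.27 to 0.29). Dlat, the acetyltransferase core, ranged from 27.7 to 36.9 CPM with a difference of 0.21 (-0.073 to 0.49). Pdhx, which anchors the dihydrolipoamide dehydrogenase to that core, ranged from 8.35 to 14.5 CPM with a difference of 0.19 (-0.26 to 0.64). The upper bounds for Pdha1, Pdhb and Dlat were below the log2 differences of 0.59 to 0.96 estimated for Pdk4, Pdp2, Pdk2 and Pdk1, and that of Pdhx was not. The 95% intervals of Pdk4, Pdp2, Pdk2 and Pdk1 began at 0.17, 0.20, 0.11 and 0.30. They overlapped those of Pdha1, Dlat and Pdhx, and all except that of Pdk1 overlapped that of Pdhb. The difference between genes was not itself tested.

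**Figure D2:**
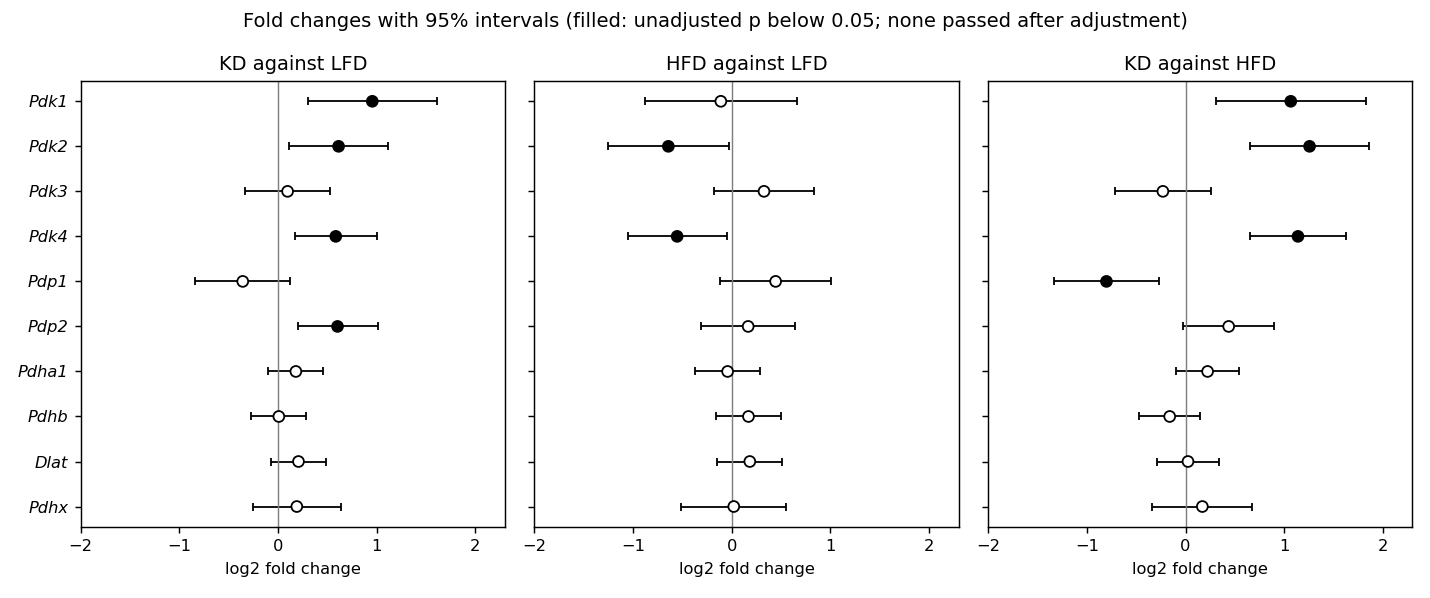
Log2 fold change of each gene for KD against LFD, HFD against LFD and KD against HFD from the edgeR fit, with 95% intervals as bars and filled points at an unadjusted p below 0.05. The points of the 4 core subunits lie near 0, and those of Pdk2 and Pdk4 lie below 0 for HFD against LFD and above 0 for both KD comparisons.

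Over all 10 genes, 9 log2 differences were above 0 for KD against LFD, with a median of 0.20, beside a median of -0.020 over all genes tested. For HFD against LFD 6 were above 0 (median 0.093, all genes -0.0017), and for KD against HFD 7 were above 0 (median 0.20, all genes -0.039).

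To compare levels between genes, CPM were divided by the length of the longest annotated transcript in kilobases. In LFD the order was Pdha1 (28.0 CPM per kb), Pdhb (17.8), Pdk4 (10.3), Pdk2 (7.80), Dlat (7.31), Pdk1 (6.67), Pdk3 (4.81), Pdhx (4.11), Pdp1 (2.65) and Pdp2 (1.91). The ranges of Pdk4 and Pdk2, Pdk2 and Dlat, Dlat and Pdk1, and Pdk3 and Pdhx overlapped over the LFD libraries, and the other neighbours did not overlap. In the KD means, Pdk4 (15.4 CPM per kb), Pdk1 (12.97) and Pdk2 (11.98) followed Pdhb (17.9) and preceded Dlat (8.43), and Pdp2 (2.91) stood above Pdp1 (2.05). This order did not hold in every library. In KD replicate 4, Pdk1 (6.81) and Pdk2 (7.44) were below Dlat (9.15), and Pdp2 (2.24) below Pdp1 (2.38). In KD replicate 1, Pdk4 (19.1) was above Pdhb (17.6). In HFD, Pdk4 (7.01) stood below Dlat (8.30), and Pdk2 (4.99) below Pdk3 (6.04). Pdp2 has 1 annotated transcript and Pdk1 has 8, and a library that used a shorter one would change these levels.

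The kinases as a group were set against the phosphatases on the same per length scale, as a description without a test. Summed kinase over summed phosphatase levels were 7.43, 6.28 and 5.86 in LFD, 4.11 and 4.34 in HFD, and 11.1, 8.67, 9.24 and 7.50 in KD. The ranges did not overlap, with HFD lowest and KD highest, and the means were 6.52 ± 0.814 (SD, n = 3), 4.22 ± 0.156 (SD, n = 2) and 9.14 ± 1.52 (SD, n = 4). KD replicate 4 was only just above LFD replicate 1. Within KD and within LFD the ratio had the same order over the libraries as the acinar share, which was 57.0%, 42.2%, 53.3% and 19.3% in KD and 33.7%, 23.6% and 14.3% in LFD. Within HFD the order was the reverse, with acinar shares of 18.1% in replicate 1 and 10.8% in replicate 2. The part of acinar RNA in the ratio was not tested. On counts not divided by length, LFD reached 5.28 and KD began at 5.01, so those ranges overlapped. Kinases over core subunits were 0.461 to 0.557 in LFD, 0.387 and 0.423 in HFD, and 0.566 to 0.839 in KD, which did not overlap with or without the division by length.

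Within the kinases, Pdk4 made up 34.5% ± 4.29 (SD, n = 3) of the summed level in LFD, 29.1% ± 2.98 (SD, n = 2) in HFD and 34.4% ± 6.61 (SD, n = 4) in KD, so its share overlapped between diets. The share of Pdk3 was 23.7% and 26.4% in HFD, above the 12.7% to 18.5% of LFD and the 7.26% to 19.3% of KD. Within the phosphatases, Pdp2 made up 38.4% to 48.0% in LFD, 32.1% and 43.6% in HFD, and 48.5% to 67.9% in KD.

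**Figure D3:**
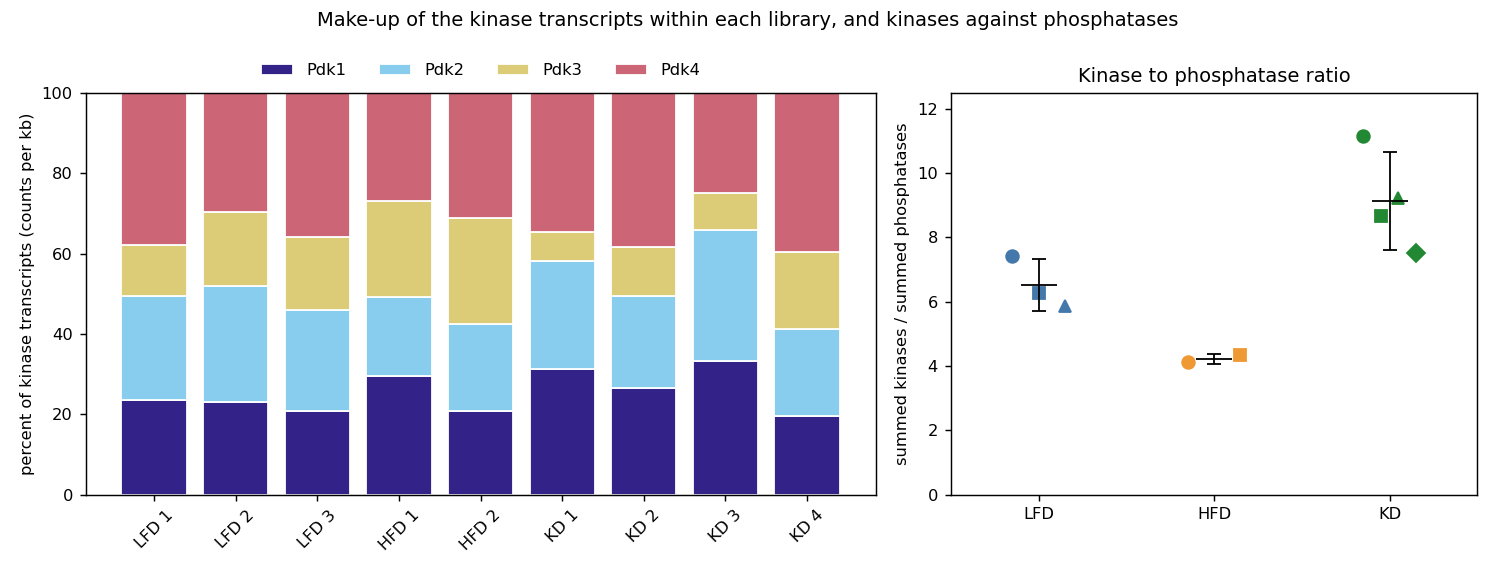
Share of each kinase in the summed kinase level per library (stacked bars from 0 to 100 percent, CPM per kb) and the ratio of summed kinase to summed phosphatase level per library (points, with the mean and SD of each diet). The ratio lies between 7.50 and 11.1 in KD, 5.86 and 7.43 in LFD and 4.11 and 4.34 in HFD.

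The acinar share moved with the levels of several of the 10 genes, in both directions. Of the 18 acinar markers, 12 were higher and 1 lower in KD than in LFD at an unadjusted p below 0.05 in edgeR, against 22.7% of all genes. In edgeR 0 passed the adjusted threshold, against 4.12%. DESeq2 called 8 higher and 1 lower, against 9.56%, and limma-voom 2 higher and 1 lower, against 10.1%. The lower marker was Amy2a5, at 14.3 to 51.3 CPM in LFD and 2.11 to 12.1 in KD. KD replicates 1 and 3, with acinar shares of 57.0% and 53.3%, had the highest Pdk1, Pdk2 and Pdp2, and KD replicate 4 at 19.3% the lowest of the KD libraries for each. In the other diets Pdp2 had the opposite order. It measured 9.56, 11.4 and 11.6 CPM in LFD replicates 1 to 3, at falling shares of 33.7%, 23.6% and 14.3%. In HFD replicates 1 and 2 it measured 11.6 and 12.8 CPM, at 18.1% and 10.8%. Pdha1 was also highest in KD replicates 1 and 3 and lowest in KD replicate 4 among the KD libraries, over a narrower range. Pdk3 and Pdp1 ran the other way: KD replicates 1 and 3 had their lowest KD levels (8.48 and 9.44 CPM for Pdk3, 7.08 and 7.04 for Pdp1). For Pdk4, the library with the highest acinar share had the highest level in KD and in LFD. These were KD replicate 1, at 66.7 CPM, and LFD replicate 1, at 33.7% and 43.0 CPM. The HFD levels of Pdk4, 24.6 and 24.3 CPM, differed by less than their counting error. KD replicate 3 had the lowest KD level of Pdk4, and LFD replicate 2, at 23.6%, the lowest LFD level. In KD replicate 4, whose acinar share of 19.3% was inside the LFD range, Pdk1 (35.3 CPM) was within the LFD range, Pdk2 (16.7) below it, and Pdp2 (12.7) and Pdk4 (47.7) above it. For Pdp2 and Pdk4 the 95% interval for counting error overlapped that of the highest LFD library. For Pdk4 these were 44.9 to 50.6 and 39.9 to 46.3 CPM. The part of acinar RNA in these differences was not tested beyond the covariate fits, which can hardly tell the score apart from diet for KD against HFD. Of the lymphocyte markers, 11 of 12 were lower in KD than in LFD at the adjusted threshold in edgeR, against 4.12% of all genes. Their part was not tested beyond the covariate fit, which can hardly tell their score apart from diet.

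**Figure D4:**
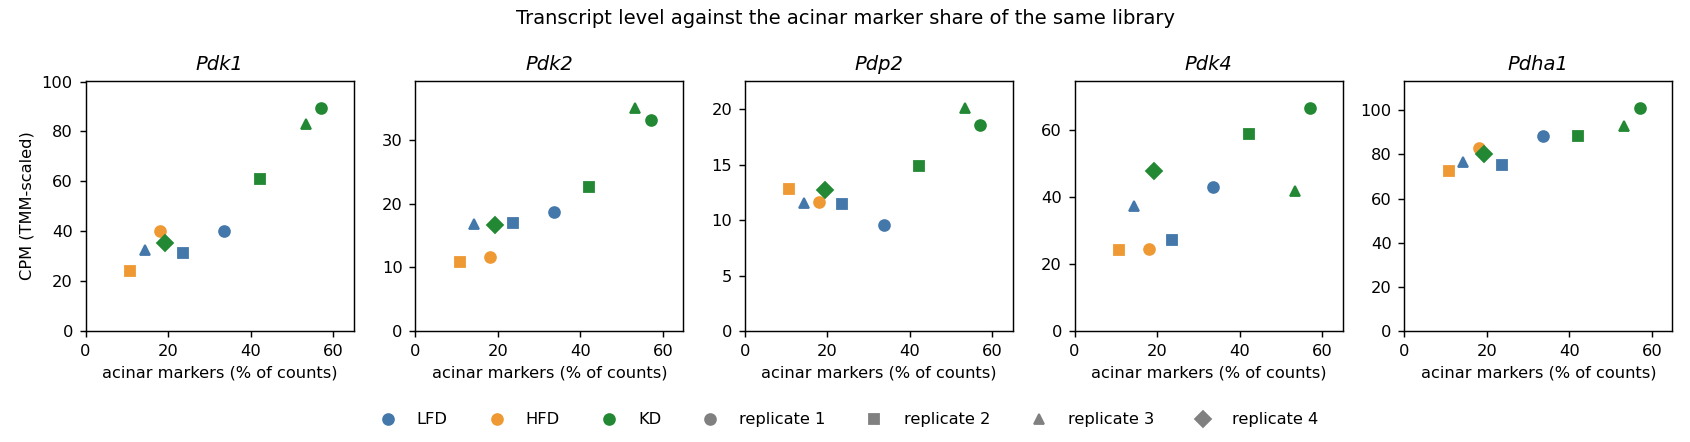
Level of Pdk1, Pdk2, Pdp2, Pdk4 and Pdha1 in CPM (y axis) against the percent of counts from 18 acinar markers (x axis), with 1 point per library and the diets in colour. KD replicate 4, at 19.3%, lies apart from the other KD libraries, with its Pdk1 level of 35.3 within the LFD points and its Pdk4 level of 47.7 above them.

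The wider pathway was read from 6 lists of 74 genes, of which 71 passed the filter. For KD against LFD, edgeR called 1 of the 71, which was higher, against 4.12% of all genes. At an unadjusted p below 0.05 there were 20 higher and 5 lower, against 22.7% of all genes. DESeq2 called 8 higher and 1 lower, against 9.56% of all genes, and limma-voom 6 higher and 2 lower, against 10.1%. The same shares of all genes apply to the KD against LFD counts of each list below. For the other contrasts edgeR called 0, with 0% of all genes. At the unadjusted level there were 20 higher and 4 lower for KD against HFD, against 22.7% of all genes. For HFD against LFD there were 3 higher and 6 lower, against 9.99%. DESeq2 called 13 higher and 1 lower for KD against HFD (8.18% of all genes) and 0 for HFD against LFD (1.44%). With limma-voom 0 were called in both, against 0% and 0.0539% of all genes.

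Among 15 genes of other pyruvate and acetyl-CoA routes, 1 passed. Slc25a1, the mitochondrial citrate carrier, was 25.0 to 28.1 CPM in LFD and 41.2 to 44.3 in KD, with no overlap. Of all genes, 19.7% had KD and LFD libraries that did not overlap. The KD mean of Slc25a1 was 1.59-fold the LFD mean (log2 0.67, SE 0.11, edgeR adjusted p = 0.0133). The call was lost in 4 of 20 alternatives: without LFD replicate 1, without KD replicate 2, with the lymphocyte score and with the acinar score without KD replicate 4. The median log2 difference of the 15 genes was 0.36.

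Among 16 tested targets of the fatty acid receptors called PPARs, a group to which Pdk4 is usually counted, 0 passed in edgeR for KD against LFD. At an unadjusted p below 0.05, 9 were higher, against 22.7% of all genes in either direction, with a median of 0.37. DESeq2 called 2 of them higher and limma-voom 3. Cpt1a, which admits long-chain fatty acids to the mitochondrion, was 64.8 to 68.6 CPM in LFD and 70.5 to 107 in KD, with no overlap (log2 0.46, SE 0.14, edgeR adjusted p = 0.0934). Acadvl, which starts the oxidation of long-chain fatty acids inside it, was 32.5 to 36.7 CPM in LFD and 43.4 to 52.99 in KD, also with no overlap (log2 0.45, SE 0.12, edgeR adjusted p = 0.0562). Ehhadh, a peroxisomal enzyme of fatty acid oxidation, overlapped between the diets (log2 0.85, SE 0.24, edgeR adjusted p = 0.0704).

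Of 12 regulators of the kinase genes, 0 passed in edgeR, DESeq2 or limma-voom, and 1 (Ppargc1b) was higher at an unadjusted p below 0.05 in edgeR (median 0.14). Ppard, a fatty acid receptor, was 18.7 to 28.1 CPM in LFD and 24.1 to 37.4 in KD (log2 0.37, edgeR adjusted p = 0.246). Among 10 tested further parts of the complex and of its cofactor supply, 0 passed and 0 had an unadjusted p below 0.05 for KD against LFD in edgeR (median 0.071), and DESeq2 and limma-voom called 0. These included Pdpr, a regulatory subunit of the phosphatase, at 24.4 ± 2.49 CPM (SD, n = 3) in LFD and 31.8 ± 8.46 (SD, n = 4) in KD. Among 9 tested hypoxia-responsive genes 0 passed and 3 were lower at an unadjusted p below 0.05 in edgeR (median -0.16), with 1 lower in DESeq2 and 2 in limma-voom. The 3 were Egln3 (log2 -2.21, edgeR adjusted p = 0.0589), Adm (-1.46, 0.124) and P4ha1 (-0.61, 0.179). Egln3 and Adm were low, with KD means of 0.468 and 0.307 CPM, and the estimate turned to 1.62 for Egln3 with the lymphocyte score and to 0.29 for P4ha1 with the acinar score without KD replicate 4. Ndrg1, another gene of the list, was 92.0 to 102 CPM in LFD and 107 to 131 in KD, with no overlap (log2 0.24, edgeR adjusted p = 0.272). Slc2a1, also of the list, went the other way and overlapped between the diets (log2 -0.47, edgeR adjusted p = 0.258).

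**Figure D5:**
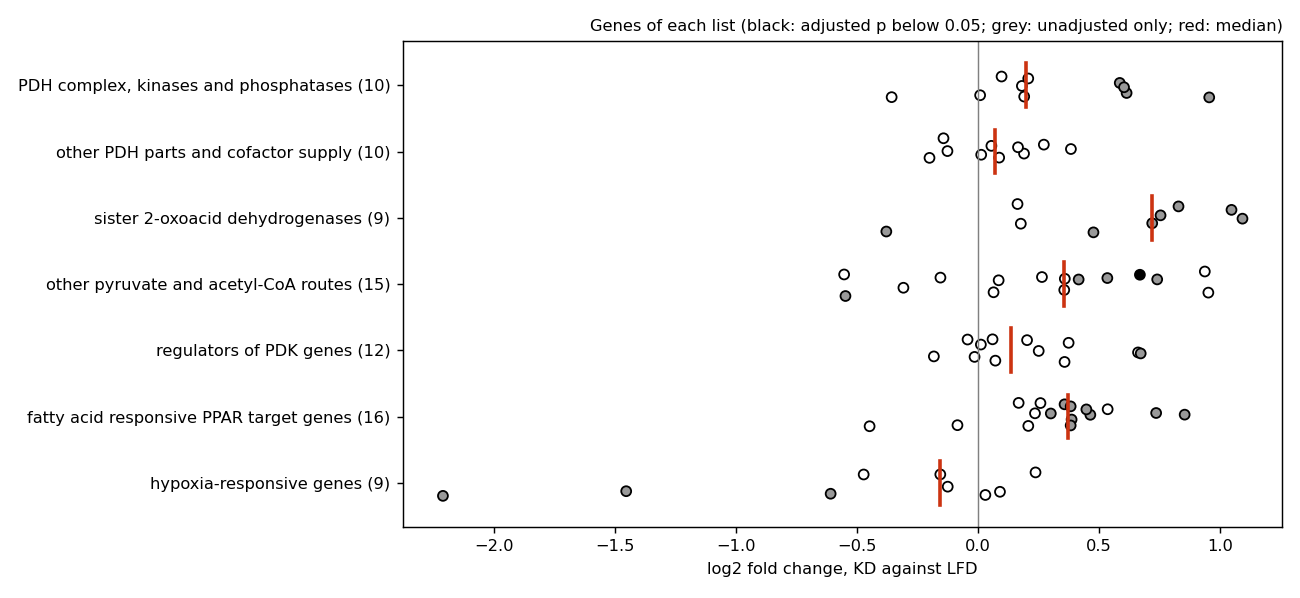
Log2 fold change of KD against LFD for the 10 genes and for every tested gene of the 6 pathway lists, with 1 point per gene (black past the adjusted threshold, grey at an unadjusted p below 0.05) and the median of each list as a red bar. The medians run from -0.16 for the hypoxia-responsive genes to 0.72 for the sister dehydrogenases, and Slc25a1 is the point that passed.

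The 5 genes whose level followed that of Pdk4 most closely were found by the root mean square difference of log2 CPM, centred on the mean of each gene, over the 9 libraries and 10377 genes. They were Fam81a (0.218), Ttc38 (0.224), Eef1a2 (0.238), Gltp (0.243) and Pdcd4 (0.251), where the standard deviation of Pdk4 itself over the libraries was 0.53 on the log2 scale. This likeness is a description of 9 libraries of which 4 share a diet.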

How the data were processed

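The authors deposited raw counts per Ensembl gene for 9 libraries of polyadenylated RNA from a strand-specific kit, per the labels' protocols. Per the submitters' processing notes, the tools were cutadapt 1.16, STAR 2.7.9a, featureCounts 1.6.3 and DESeq2 1.40.2 with build GRCm39. The strand setting and annotation are not given in the sources used here. Symbols matched 51948 of 56941 identifiers, and transcript lengths came from GENCODE.

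Counts were fitted with edgeR 4.0.16 in R 4.3.3 (filterByExpr, TMM, robust quasi-likelihood, a mean per diet over all 9 libraries). The 18548 genes tested took 99.86% or more of the counts in every library. Tests were two-sided, with Benjamini-Hochberg adjustment over all genes and a threshold of 0.05. Standard errors were the size of the log2 difference over the square root of F. Alternatives were DESeq2 1.42.0, limma-voom (limma 3.58.1), other size factors and filters, acinar and lymphocyte scores (mean log2 CPM, prior count 2) as covariates, the replicate number as a block, fits of only the diets compared, other transcript lengths and the omission of each library. The acinar score without KD replicate 4 was added after seeing the data. On simulated data for KD against LFD (18081 genes, 200 changed), edgeR recovered 47% of 2-fold and 88% of 4-fold changes, with 12 false calls and 0 wrong signs.

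The members and lists were chosen with earlier results of these data known. All 10 members were named. From each pathway list the genes past the threshold, or otherwise up to 3 with the lowest p, could be named. Ndrg1 and Slc2a1 were named beyond this rule. The values of 1 listed gene are not reported here, and the list counts leave it out. The 5 genes most like Pdk4 were taken among those with a symbol and a mean of at least 5 CPM. Isolation and sequencing batches are not given in the labels and cannot be told apart from diet.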

Additional observations from a re-analysis of the deposited data

How the results depend on the processing

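Of 600 alternative values for the 30 log2 differences of the 10 genes, 542 kept their direction and did not pass the threshold, 22 newly passed it and 36 changed sign. In the main fit 0 of the 30 had passed, so a pass could not be lost. Leaving out 1 library at a time gave 0 to 3 of the 10 genes for KD against LFD, 0 to 3 for KD against HFD and 0 to 4 for the joint test, and 151 to 1348 of all genes for KD against LFD, 0 to 194 for HFD against LFD, 0 to 1793 for KD against HFD and 36 to 1827 jointly. KD replicate 4 gave the highest counts of the 10 genes. Leaving out 1 library changed the sign of Pdha1 (-0.14 to 0.051), Pdhx (-0.30 to 0.28) and Pdk1 (-0.52 to 0.21) for HFD against LFD, Pdhb (-0.083 to 0.068) and Pdk3 (-0.058 to 0.20) for KD against LFD, and Dlat (-0.058 to 0.12) and Pdhx (-0.084 to 0.50) for KD against HFD. The causes were not tested.

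DESeq2 called 1773, 268, 1518 and 2343 of all genes for KD against LFD, HFD against LFD, KD against HFD and jointly, with 2, 0, 4 and 3 of the 10 genes, and limma-voom called 1867, 10, 0 and 1592, with 1, 0, 0 and 3. Without the filter the counts were 81 for HFD against LFD, 316 for KD against HFD (2 of the 10) and 1221 jointly (2 of the 10). With the filter of 5 CPM they were 361 for KD against LFD and 127 jointly (0 of the 10), with Pdhb at -0.057 for KD against LFD and Dlat at -0.023 for KD against HFD. Pdhx for HFD against LFD was -0.0023 with DESeq2 size factors, -0.0012 with DESeq2 and -0.015 with limma-voom, and Pdhb for KD against LFD was -0.078 with limma-voom and -0.0013 with only the diets compared.

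With the acinar score 1384 genes were called for KD against LFD and 898 jointly (0 of the 10). HFD against LFD turned for Pdk1 (0.30) and Pdha1 (0.078), and KD against HFD for Pdk1 (-0.032), Pdk3 (0.26), Pdha1 (-0.058) and Ppara (-0.056). The acinar score did not overlap between KD and HFD. The fit can hardly tell it apart from diet there, and nothing is concluded from the KD against HFD values. With that score and without KD replicate 4, 116 genes were called for KD against LFD and 0 of the 10 jointly. KD against LFD turned for Pdha1 (-0.031), Pdhb (-0.33), P4ha1 (0.29), Mpc2 (-0.033) and Ppard (-0.079), HFD against LFD for Pdk1 (0.23) and Pdha1 (0.099), and KD against HFD for Pdk3 (0.17), Pdha1 (-0.13) and Ppara (-0.33). Without KD replicate 4 the acinar score did not overlap between KD (13.3 or more) and LFD (12.8 or less) either, so the same limit holds. With the lymphocyte score 0 genes were called for KD against LFD, 40 for KD against HFD and 0 jointly (0 of the 10). KD against LFD turned for Pdk3 (-0.058), Pdhx (-0.39), Egln3 (1.62) and Pdpr (-0.062), and HFD against LFD for Pdp1 (-0.020) and Pdhx (-0.40). The lymphocyte score did not overlap between the diets (0.916 to 3.62 in LFD, -0.999 and -0.695 in HFD, -2.46 to -1.73 in KD). The fit with this score can therefore hardly tell it apart from diet, and nothing is concluded from the lost calls.

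Deviations of same-numbered libraries correlated between -0.016 and 0.22, and those of differently numbered libraries between -0.28 and 0.24. The deviations of the 2 HFD libraries mirror each other, so these values cannot decide whether the numbers pair libraries. With a replicate block, in which KD replicate 4 has no partner, edgeR called 2003 genes (4 of the 10) for KD against LFD, 395 for HFD against LFD, 2320 (3 of the 10) for KD against HFD and 2820 (4 of the 10) jointly, with Pdk3 at -0.055 and Pdhb at -0.040 for KD against LFD. With median transcript lengths the share of Pdk4 was 43.4%, 37.3% and 42.3% in LFD, HFD and KD, and the kinase to phosphatase ratio 22.98, 14.4 and 35.9, against 4.49, 2.94 and 6.26 on counts not divided by length. Groups of 2 to 4 libraries limit every comparison.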

Other observations

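The sister dehydrogenases use the same chemistry as the pyruvate dehydrogenase complex on other 2-oxoacids. Of 9 such genes, 0 passed the adjusted threshold for KD against LFD in edgeR. At an unadjusted p below 0.05, 6 were higher and 1 lower, against 22.7% of all genes, with a median log2 difference of 0.72. DESeq2 called 4 of them higher, against 9.56% of all genes, and limma-voom 1, against 10.1%. Bckdhb, a subunit of the branched-chain complex, was 16.3 to 19.5 CPM in LFD and 23.4 to 38.2 in KD, with no overlap (log2 0.75, SE 0.21, edgeR adjusted p = 0.0631). Ogdh, the 2-oxoglutarate dehydrogenase of the citric acid cycle, was 155 to 176 CPM in LFD and 211 to 249 in KD (log2 0.48, SE 0.13, edgeR adjusted p = 0.0661). Bckdk, the kinase that inhibits the branched-chain complex, overlapped between the diets (log2 1.05, SE 0.32, edgeR adjusted p = 0.0909). Ppm1k, the phosphatase that opposes Bckdk, was 25.5 and 32.97 CPM in HFD and 18.1 to 22.98 in KD (log2 -0.49, SE 0.17, edgeR adjusted p = 0.145).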
